A study of Mus musculus with 18 samples.

Results

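The interferon-stimulated genes followed here were 9 genes chosen by symbol: *Irf1*, *Irf7*, *Isg15*, *Ifit1*, *Ifit2*, *Ifit3*, *Oasl1*, *Rsad2* and *Usp18*. All 9 were among the 19057 rows of the liver table, and all 9 passed the filter on low values. Livers of 18 ICR mice, 3 in each of 6 groups and labelled as 10 weeks old, were sequenced. Con mice were the controls, and STZ mice had received streptozotocin, which destroys the insulin-producing beta cells and gives a model of type 1 diabetes. A10-FMT mice were STZ mice that received fecal microbiota transplantation from donors given alginate oligosaccharide (AOS, 10 mg/kg), and Con-FMT mice were STZ mice that received the microbiota of control donors. AOS mice received AOS at 10 mg/kg without STZ, and STZ+AOS mice received both. The AOS and STZ+AOS groups are given by the sample labels, and the timing of AOS in them is not given in the sources used here. Donor material was pooled small intestinal content, so mice of an FMT group shared their inoculum. The liver also sees the direct effect of STZ on hepatocytes, and in these groups that effect and the diabetes cannot be told apart.

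Interferons are secreted proteins that bind receptors on the cell surface. Type I interferons signal through the receptor chains Ifnar1 and Ifnar2, the kinases Jak1 and Tyk2, and a transcription factor complex that holds Stat2 and Irf9 and binds a DNA element named the interferon-stimulated response element (ISRE). Interferon gamma has its own receptor, and many genes it induces carry a DNA element named the gamma-activated sequence (GAS). In the liver, Kupffer cells, endothelium and hepatocytes all respond, and a low basal level of these genes is present without infection. *Irf1* and *Irf7* encode transcription factors, *Irf7* being the main activator of the interferon alpha genes. *Isg15* encodes a ubiquitin-like protein that is joined to other proteins, and *Ifit1*, *Ifit2* and *Ifit3* encode RNA-binding or partner proteins that block translation of viral RNA. *Oasl1* encodes a protein that represses translation of *Irf7* mRNA, and *Rsad2* encodes viperin, an antiviral enzyme. *Usp18* encodes a protease that removes ISG15 from proteins and, bound to Ifnar2, dampens type I interferon signalling.

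Promoter windows are printed because most of these genes moved together over the livers of all groups and the response elements are what their promoters are known to share. RefSeq (GRCm38.p6) held 10 promoters for 8 of the 9 genes (all but *Usp18*), each running from 250 bases before to 50 bases after the start of a transcript. The ISRE core, GAAA followed by any 2 bases and GAAA, was searched on both strands and was found for 4 genes (*Isg15*, *Ifit1*, *Ifit3*, *Rsad2*) and in 3.44% of 32851 promoters. The GAS core, TTC followed by any 3 bases and GAA, reads alike on both strands and was found for 2 genes (*Irf1*, *Ifit2*) and in 8.3% of all promoters. Each window below covers positions -170 to -51 from the start, written 5′ to 3′ on the strand of the gene, with the match in capitals.
Isg15: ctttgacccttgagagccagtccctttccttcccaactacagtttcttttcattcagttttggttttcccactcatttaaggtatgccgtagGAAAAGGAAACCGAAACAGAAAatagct
Ifit1: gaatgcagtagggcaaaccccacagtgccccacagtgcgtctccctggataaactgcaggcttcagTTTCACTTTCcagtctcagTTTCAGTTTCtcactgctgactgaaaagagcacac
Ifit3: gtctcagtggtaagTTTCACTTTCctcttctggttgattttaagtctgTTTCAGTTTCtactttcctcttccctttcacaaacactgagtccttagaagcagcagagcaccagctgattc
Rsad2: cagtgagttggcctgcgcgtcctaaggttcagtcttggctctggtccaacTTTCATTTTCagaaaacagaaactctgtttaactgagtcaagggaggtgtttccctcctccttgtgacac
Irf1: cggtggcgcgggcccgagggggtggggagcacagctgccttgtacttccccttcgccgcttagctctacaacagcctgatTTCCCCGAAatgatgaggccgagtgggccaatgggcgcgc
The *Isg15* window (chr4:156200869-156200988, minus strand) holds 3 overlapping ISRE matches in 1 run. The *Ifit1* window (chr19:34640719-34640838, plus strand) and the *Ifit3* window (chr19:34583359-34583478, plus strand) hold 2 separate ISRE matches each, which read TTTC, 2 bases and TTTC on the strand of the gene. The *Rsad2* window (chr12:26456503-26456622, minus strand) holds 1 ISRE match, and the *Irf1* window (chr11:53769844-53769963, plus strand) holds 1 GAS match. These are matches of letters in a window, not measured binding sites, and the absence of a match says only that the letters are not in that window.

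Levels are given as RPKM, read values scaled to transcript length and library size, so that genes can be compared per length. In the Con livers *Irf7* had the highest level of the 9 genes, with 17.66, 14.57 and 17.11 RPKM in mice 1 to 3. *Isg15* (mean 11.6 RPKM) and *Irf1* (mean 10.1 RPKM) followed, and their ranges over the Con mice overlapped. *Oasl1* (5.49 RPKM) was next, then *Ifit3* (2.81) and *Usp18* (2.22), which overlapped each other. *Ifit1* (1.10 RPKM), *Rsad2* (0.803 RPKM) and *Ifit2* (0.473 RPKM) were lowest, with ranges that did not overlap. The read depth of the libraries is unknown from RPKM, so the counting error of *Ifit1*, *Ifit2* and *Rsad2*, near or under 1 RPKM, could not be calculated. All tests used log2(RPKM + 1), a scale on which the change of such low genes is understated. With STZ the order changed mainly through *Usp18*, which moved to rank 3 by mean in STZ and to rank 2 in STZ+AOS livers.

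**Figure D1:**
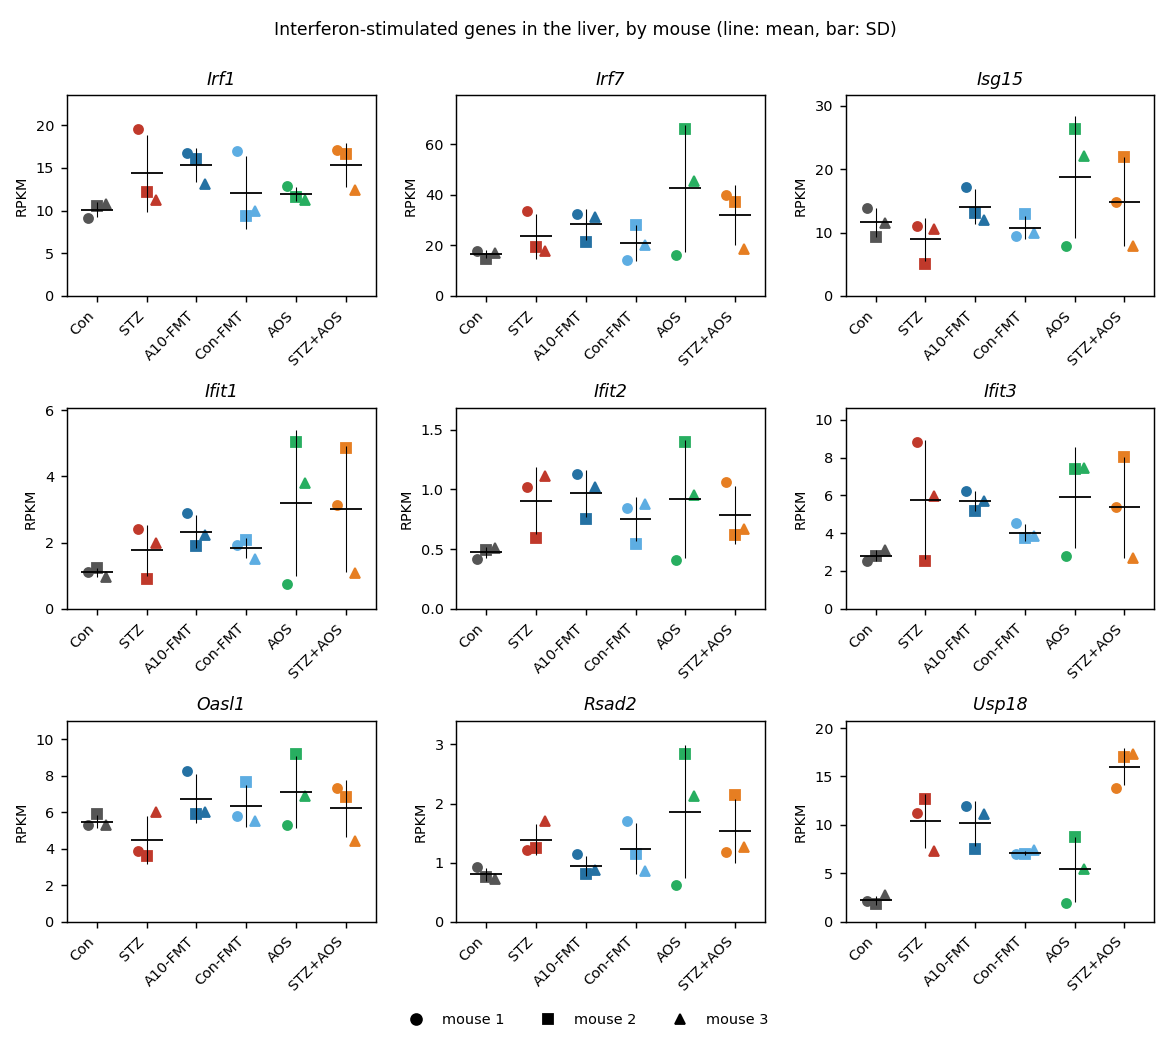
RPKM of each of the 9 genes (y axis, RPKM, from 0) in each mouse of the 6 groups (x axis), with the mean as a line, the SD as a bar and the marker shape giving the mouse number within a group. Usp18 is at 1.78 to 2.71 RPKM in Con and at 6.94 RPKM or more in every mouse given STZ, and in the AOS group mouse 1 is the lowest for 8 of the 9 genes.

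The first comparison asked whether STZ changed these genes in the liver. *Usp18* was higher in STZ than in Con livers, and the other genes shifted less or varied between mice. *Usp18* was 2.17, 1.78 and 2.71 RPKM in the Con mice and 11.26, 12.69 and 7.27 RPKM in the STZ mice. The groups did not overlap, and the lowest STZ mouse was above the highest Con mouse. The change was 1.80 on the log2 scale (SE 0.20, adjusted p = 0.00033, limma), a fold of 3.49 on the RPKM + 1 scale. *Usp18* was higher in 3 of 3 STZ mice, and its call was kept under each of the 10 alternative settings and each of the 12 leave-one-out fits.

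*Rsad2* was the other gene that passed the test. It was 0.93, 0.76 and 0.72 RPKM in Con and 1.22, 1.25 and 1.70 RPKM in STZ mice, with no overlap. *Rsad2* reached 1 RPKM in 0 Con, 3 STZ, 1 A10-FMT and 2 Con-FMT mice. It thus passed the filter on low values only through mice given STZ, and its call is not independent of that filter. The change was 0.40 on the log2 scale (SE 0.14, adjusted p = 0.045, limma). This call was kept in 3 of 9 alternative settings and in 2 of 12 leave-one-out fits, where the adjusted p ran from 0.023 to 0.204 over both kinds. With median-ratio scaling, which sets the median of all genes to about 0, the *Rsad2* change was 0.27 and did not pass.

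*Ifit2* (log2 change 0.36, adjusted p = 0.050) and *Ifit3* (0.71, adjusted p = 0.060) stood just outside the threshold. The *Ifit2* change passed in 3 of 7 alternative settings, with an adjusted p from 0.034 to 0.107. *Ifit2* reached 1 RPKM in 0 Con, 2 STZ, 2 A10-FMT and 0 Con-FMT mice, so it too passed the filter only through mice given STZ. *Ifit3* was 2.52, 2.78 and 3.13 RPKM in Con mice and 8.84, 2.53 and 5.96 RPKM in STZ mice. STZ mouse 2 was inside the Con range and the other 2 STZ mice were above it. *Ifit1* showed the same order, with 2.40, 0.91 and 1.99 RPKM in STZ against 1.12, 1.23 and 0.96 RPKM in Con mice. Without STZ mouse 2, *Ifit1*, *Ifit2* and *Ifit3* passed the test together with *Usp18*, and *Rsad2* did not, so 4 of the 9 genes were called in place of 2. The share of all genes called in that fit is not given here, so this rise cannot be read as particular to these genes.

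*Isg15* and *Oasl1* were the members with a negative estimate. *Isg15* was 11.06, 5.07 and 10.62 RPKM in STZ against 13.90, 9.34 and 11.55 RPKM in Con mice, with overlapping groups (log2 change -0.39, adjusted p = 0.225). *Oasl1* had a log2 change of -0.27 (adjusted p = 0.237), and passed with -0.46 when STZ mouse 3 was left out. The transcription factors *Irf1* (0.43, adjusted p = 0.153) and *Irf7* (0.44, adjusted p = 0.217) did not pass.

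In all, 2 of 9 genes were called against 38.5% of the 10602 genes tested, so the share called among them was below that of all genes. The groups did not overlap, with STZ higher, for 4 of the 9 genes (*Irf1*, *Ifit2*, *Rsad2*, *Usp18*), against 40.8% of all genes. Of these, *Ifit2* and *Rsad2* passed the filter only through mice given STZ. The median log2 change was 0.40 over the 9 genes and 0.21 over all genes, and the latter fell to -0.01 after median-ratio scaling. The *Usp18* change was 1.59 after that scaling. Summed Kupffer cell and macrophage markers, all 11 of them detected, ran from 132 to 199 RPKM in Con and from 193 to 381 RPKM in STZ livers. Neutrophil and monocyte markers (7 genes) ran from 20.7 to 32.6 RPKM in Con and from 24.4 to 71.9 RPKM in STZ livers. Both sums were highest in STZ mouse 2, the mouse with the lowest *Isg15*, *Ifit1* and *Ifit3* and the highest *Usp18* of its group. Stellate cell and fibroblast markers (5 genes) ran from 70.4 to 81.9 RPKM in Con and from 106 to 130 RPKM in STZ livers, with no overlap. Of these 5 markers *Dcn*, encoding decorin, was called (log2 change 0.72, adjusted p = 0.018), and the collagens *Col1a1* and *Col3a1* were not (-0.08 and -0.29). B and plasma cell markers (5 genes), 3 of them under 1 RPKM in all 18 livers, ran from 2.13 to 2.21 RPKM in Con and from 0.65 to 1.16 RPKM in STZ livers. T and NK cell markers (9 genes), 4 of them under 1 RPKM in all 18 livers, ran from 4.81 to 4.91 RPKM in Con and from 1.37 to 3.30 RPKM in STZ livers. The part of these cells in the changes was not tested. In bulk liver, more cells of a type and more RNA per cell cannot be told apart.

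**Figure D2:**
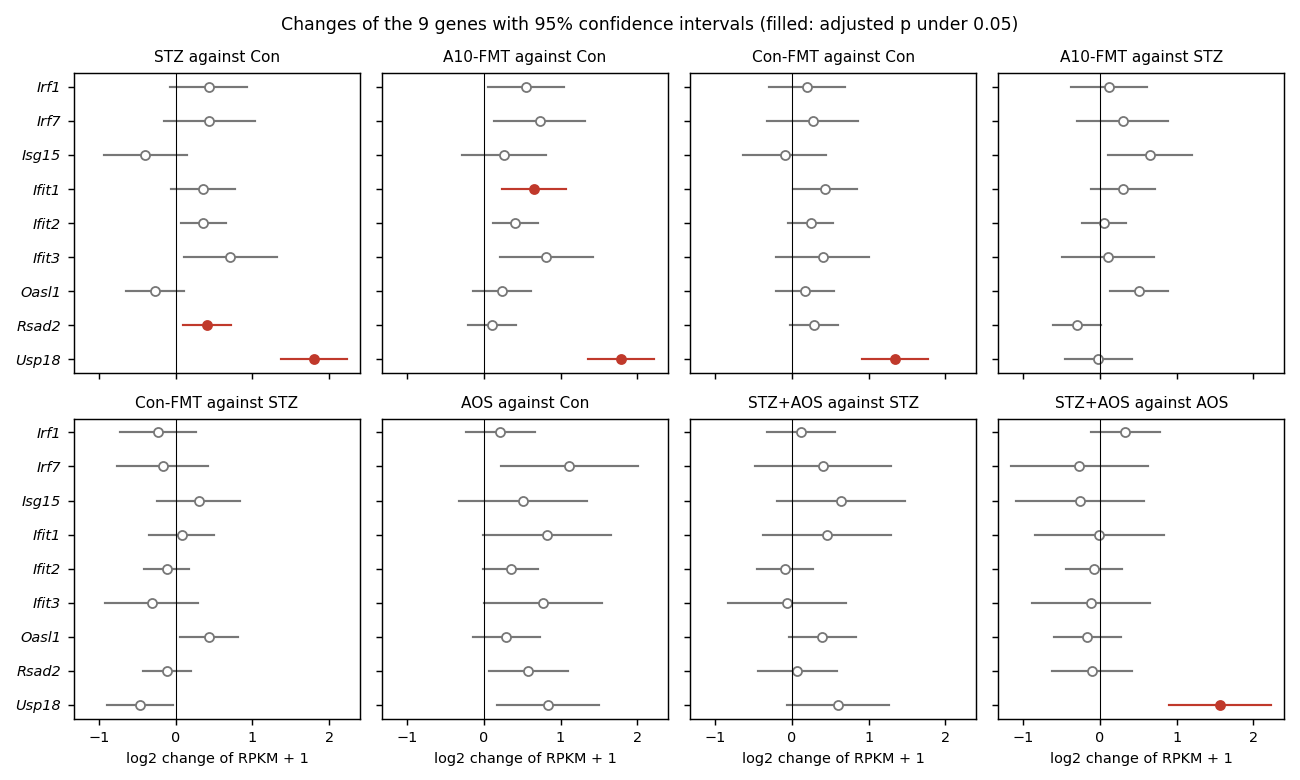
Log2 change of RPKM + 1 (x axis) of each of the 9 genes (y axis) in 8 comparisons, with points for the estimate, lines for its 95% confidence interval, and filled red points for an adjusted p under 0.05. Usp18 is the gene called in STZ, A10-FMT and Con-FMT against Con and in STZ+AOS against AOS, joined by Rsad2 in the first and by Ifit1 in the second.

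The next comparisons asked whether the transplants changed these genes in diabetic mice. A10-FMT against STZ gave no call among the 9 genes by limma (24 of 10602 genes called, 0.226%). There were 2 genes with an unadjusted p under 0.05, *Oasl1* and *Isg15*, against 20.9% of all genes. *Isg15* was 17.22, 13.05 and 11.98 RPKM in A10-FMT mice, all above the 3 STZ mice (log2 change 0.66, SE 0.25, adjusted p = 0.179). *Oasl1* was 8.27, 5.90 and 6.01 RPKM in A10-FMT and 3.85, 3.60 and 5.99 RPKM in STZ mice (0.51, SE 0.17, adjusted p = 0.145). *Oasl1* overlapped between the groups, and it passed when STZ mouse 3 was left out. *Rsad2* was lower in every A10-FMT mouse (0.81 to 1.14 RPKM) than in any STZ mouse (1.22 to 1.70 RPKM), with a change of -0.30 that did not pass (adjusted p = 0.259). Groups without overlap made up 7.61% of all genes with A10-FMT higher, as for *Isg15*, and 13.9% with A10-FMT lower, as for *Rsad2*. *Usp18*, with 11.90, 7.53 and 11.10 RPKM in A10-FMT mice, had a change of -0.02 against STZ (95% confidence interval -0.45 to 0.41). The median over the 9 genes was 0.12, and over all genes -0.05.

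Con-FMT against STZ, which uses the same STZ mice, also gave no call among the 9 genes by limma (1 of 10602 genes called, 0.00943%), and 2 at an unadjusted p under 0.05 (*Oasl1* and *Usp18*) against 20.1% of all genes. *Usp18* was 6.98, 6.94 and 7.38 RPKM in Con-FMT mice, against a range of 7.27 to 12.69 RPKM in STZ mice. The change was -0.46 (95% confidence interval -0.89 to -0.03, adjusted p = 0.220). Without STZ mouse 3 both *Oasl1* (0.62) and *Usp18* (-0.68) passed, so whether they are called depends on that mouse. The share of all genes called in that fit is not given here. The count of other pathway genes called was also highest without that mouse, so these calls cannot be read as particular to the members. The median over the 9 genes was -0.12.

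When the transplants were set against each other no member passed by limma, with 0 of 10602 genes called (0%) and an adjusted p of 0.999 for every member. *Usp18* was higher in 3 of 3 A10-FMT mice than in every Con-FMT mouse (log2 change 0.44, 95% confidence interval 0.01 to 0.87), and was the member with an unadjusted p under 0.05, against 2.86% of all genes. *Ifit3* also did not overlap, at 6.23, 5.17 and 5.71 RPKM in A10-FMT and 4.54, 3.72 and 3.83 RPKM in Con-FMT mice (0.41, interval -0.19 to 1.02). Groups without overlap, A10-FMT higher, made up 2.94% of all genes. The intervals leave room for changes in either direction for 8 of the 9 genes.

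Against Con, both transplant groups were still higher in *Usp18*. These comparisons use the same Con mice as STZ against Con, so their values are given side by side and not as separate evidence. *Usp18* was higher by 1.78 in A10-FMT (SE 0.20, adjusted p = 0.00066) and by 1.34 in Con-FMT livers (SE 0.20, adjusted p = 0.0027) on the log2 scale. In A10-FMT livers *Ifit1* also passed, with 2.88, 1.89 and 2.22 RPKM (log2 change 0.65, SE 0.19, adjusted p = 0.038). That made 2 of 9 genes in A10-FMT, where 18.4% of all genes were called, and 1 of 9 in Con-FMT, where 19.4% were called. A10-FMT mice did not overlap with Con mice, and were higher, for 6 of 9 genes (41.7% of all genes), and the median over the 9 genes was 0.55 against 0.16 for all genes. A10-FMT mouse 1 had the highest level of its group in 9 of 9 genes and was above every Con mouse in all of them. That describes 1 mouse, and the share of all genes so placed in it was not calculated. The *Ifit1* call was kept in 4 of 9 alternative settings and in 6 of 12 leave-one-out fits.

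The labels also allow AOS to be compared with Con, which asks what the oligosaccharide does without STZ. For 8 of the 9 genes AOS mouse 1 was the lowest of its group, at or below the Con level, and mice 2 and 3 were above it. *Irf7* was 16.16, 66.15 and 45.30 RPKM in AOS mice 1 to 3, against 14.57 to 17.66 RPKM in Con. *Isg15* was 7.88, 26.39 and 22.06 RPKM, and *Ifit1* was 0.76, 5.05 and 3.80 RPKM. AOS mouse 1 was below every Con mouse for both. *Ifit3* was 2.81, 7.39 and 7.46 RPKM, *Rsad2* 0.62, 2.83 and 2.13 RPKM, and *Usp18* 1.97, 8.72 and 5.48 RPKM. AOS mice 2 and 3 were above every Con mouse for 9 of 9 genes, and AOS mouse 2 had the highest level of all 18 livers for 6 of them. These 2 mice were set apart after their values were seen, and the share of all genes with such an order was not calculated. With all 3 AOS mice taken, *Irf1* alone did not overlap with Con, and the share of all genes without overlap in this comparison is not given here. *Irf1* was the exception in size, at 12.88, 11.57 and 11.29 RPKM, with AOS mouse 1 highest.

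With this spread no member passed in AOS against Con by limma (1 of 10822 genes called, 0.00924%). *Irf7* (log2 change 1.11, SE 0.42, adjusted p = 0.627), *Usp18* (0.84, SE 0.31, adjusted p = 0.627) and *Rsad2* (0.58, SE 0.24, adjusted p = 0.660) had an unadjusted p under 0.05, 3 of 9 genes against 7.22% of all genes. The median change over the 9 genes was 0.58 and over all genes 0.06. With AOS mouse 1 left out, the *Irf7* change was 1.68 and the *Usp18* change 1.31, and no member passed.

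The spread of these genes was set beside that of all 10822 genes in the same mice. Over the 3 AOS mice the SD of log2(RPKM + 1) was 1.02 for *Irf7*, 0.95 for *Ifit1*, 0.88 for *Isg15* and 0.87 for *Usp18*, while the median gene had 0.094. *Irf7* was at percentile 99.8 of all genes, and 8 of the 9 genes were at percentile 96.7 or higher, *Irf1* being at 49.5. In Con mice the SD of the 9 genes ran from 0.047 to 0.264 around a median of 0.112 for all genes. In STZ+AOS mice *Ifit1*, *Isg15*, *Ifit3* and *Irf7* were at percentiles 97.3, 96.3, 95.6 and 94.5, and in STZ mice *Ifit3* was at 97.1. Kupffer cell and macrophage markers (11 genes) summed to 164, 226 and 197 RPKM in AOS mice 1 to 3, and markers of all leukocytes (4 genes) to 12.6, 13.8 and 13.0 RPKM, in the same order of mice as most members. Red blood cell markers had that order too (2112, 2742 and 2315 RPKM). T and NK cell markers (9 genes, 4 of them under 1 RPKM in all 18 livers) summed to 9.33, 4.25 and 5.87 RPKM, the opposite order. Hepatocyte markers (8 genes) summed to 57034, 49948 and 52495 RPKM, also the opposite order. The sums of sinusoidal endothelium, of stellate cells and fibroblasts, and of cholangiocytes had this opposite order as well. The part of these cells in the spread was not tested. Plasmacytoid dendritic cell markers, of a cell type known for interferon secretion, summed to 0.33, 0.47 and 0.52 RPKM, and 4 of its 5 markers were under 1 RPKM in all 18 livers.

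**Figure D3:**
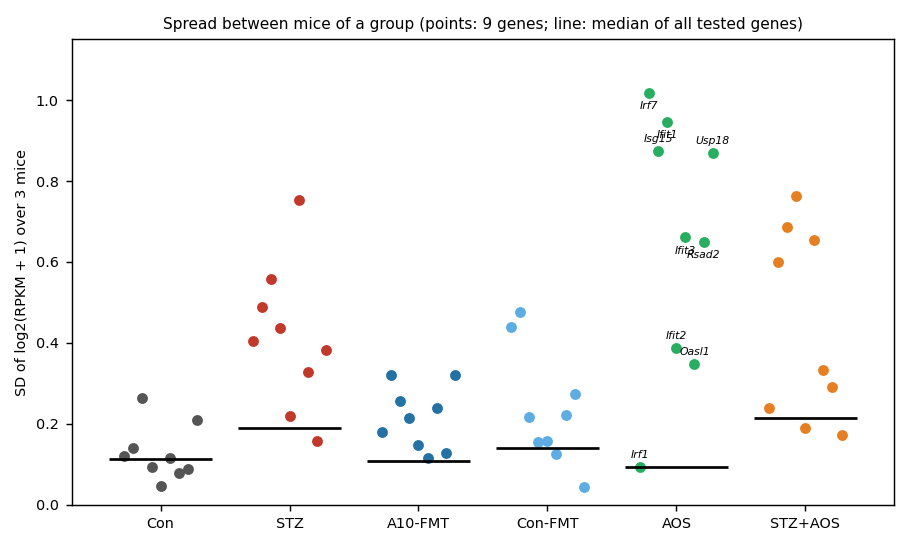
SD of log2(RPKM + 1) over the 3 mice of a group (y axis, from 0) for each of the 9 genes (points, named for AOS) in the 6 groups (x axis), with a line at the median SD of all 10822 tested genes. In AOS the points reach 1.02 while the line is at 0.094.

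STZ+AOS against STZ asked whether AOS changed the genes in diabetic mice. No member passed, and none had an unadjusted p under 0.05, where 0 of 10822 genes were called by limma (0%) and 6.07% had an unadjusted p under 0.05. *Usp18* was 13.77, 17.02 and 17.27 RPKM in STZ+AOS mice, all above the 3 STZ mice (log2 change 0.60, 95% confidence interval -0.06 to 1.26, adjusted p = 0.811). That interval rests on the spread pooled over all 6 groups, the AOS group included. Groups without overlap, STZ+AOS higher, made up 4.08% of all genes. *Isg15* (0.64, adjusted p = 0.811) was 14.81, 21.93 and 7.92 RPKM, with mouse 3 inside the STZ range. The difference between the AOS effects with and without STZ was not called for any member (0 of 10822 genes, 0%; 5.4% at an unadjusted p under 0.05, and 0 members). Its estimate was -0.24 for *Usp18* (95% confidence interval -1.17 to 0.70) and -0.71 for *Irf7* (-1.96 to 0.55), intervals that include sizeable differences in both directions.

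STZ+AOS against AOS gave a comparison of STZ in mice that all received AOS, with no library shared with STZ against Con, although the spread was estimated over all 6 groups. *Usp18* passed again, with a log2 change of 1.57 (SE 0.31, adjusted p = 0.0018, limma), and was higher in 3 of 3 STZ+AOS mice than in every AOS mouse. The share of all genes without overlap in this comparison is not given here. *Usp18* was the single call among the 9 genes, against 37.9% of all genes, and was called in each of 18 leave-one-out fits, with changes from 1.09 to 1.95. The other 8 genes had changes from -0.27 (*Irf7*) to 0.33 (*Irf1*), the median of the 9 was -0.11, and the median of all genes was 0.21. Stellate cell and fibroblast markers summed to 80.6 to 89.3 RPKM in AOS and 129 to 152 RPKM in STZ+AOS livers, again with *Dcn* as the called marker (0.77, adjusted p = 0.0047). B and plasma cell markers summed to 2.51 to 2.88 RPKM in AOS and 0.90 to 1.45 RPKM in STZ+AOS livers. Red blood cell markers (5 genes) summed to 2112 to 2742 RPKM in AOS and 280 to 1502 RPKM in STZ+AOS livers. Hepatocyte markers (8 genes) summed to 49948 to 57034 RPKM in AOS and 40032 to 43736 RPKM in STZ+AOS livers. None of these sums overlapped between the groups, and their part in the *Usp18* change was not tested.

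The library of STZ+AOS mouse 3 stood apart in that it held transcripts of the exocrine pancreas. *Ctrb1*, encoding a chymotrypsinogen, was 36.45 RPKM there and at most 0.61 RPKM in the other 17 libraries, and 5 such markers summed to 65.5 RPKM. This mouse had the lowest level of its group for 6 of the 9 genes, among them *Irf7* (18.38 RPKM), *Ifit1* (1.07 RPKM) and *Ifit3* (2.68 RPKM), and the highest *Usp18* of all 18 livers. Without it, the *Usp18* change was 1.51 against AOS and 0.55 against STZ.

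Most of the 9 genes varied together when the mice of all groups were taken. Over the 36 pairs of genes, Pearson's r across the 18 livers ran from -0.03 to 0.88, with a median of 0.55. After group means were taken out, which leaves the spread between mice of the same group, the median was 0.60 and the largest r was 0.95, for *Isg15* and *Ifit1*. Points of the same library share its depth and cell makeup, so these values are descriptions. Groups with a wide spread between mice, such as AOS, weigh most in them. Con mice 1 to 3 were the highest of their group for 3, 2 and 4 genes, and Con-FMT mice 1 to 3 for 3, 4 and 2. In those groups no mouse was highest for most members. The r of pairs of other genes was not calculated. The r of a gene with the mean z score of the other 8 was 0.96 for *Ifit1*, 0.87 for *Ifit3* and 0.84 for *Irf7*. It was 0.54 for *Oasl1* (Spearman's rho 0.66), 0.51 for *Usp18* (rho 0.43) and 0.37 for *Irf1* (rho 0.39). With group means taken out the values were 0.67 for *Oasl1*, 0.55 for *Usp18* and 0.15 for *Irf1*, whose median r with the other 8 genes was then 0.09.

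Of 10813 other genes, the 8 whose level was most like the mean z score of the members over 18 livers were *Rtp4* (r = 0.90), *Ifi44* (0.90), *Ifit3b* (0.89), *Gbp3* (0.86), *Gbp7* (0.85), *Oasl2* (0.82), *Ddx58* (0.82) and *Zbp1* (0.82). All 8 were on the pathway lists, and they were named by this rule alone. *Ifit3* and *Ifit3b* are near-identical copies, so reads may have been split between them and neither value is certain on its own. *Rtp4* ran from 7.50 to 21.26 RPKM and *Zbp1* from 3.71 to 13.44 RPKM over the 3 AOS mice.

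**Figure D4:**
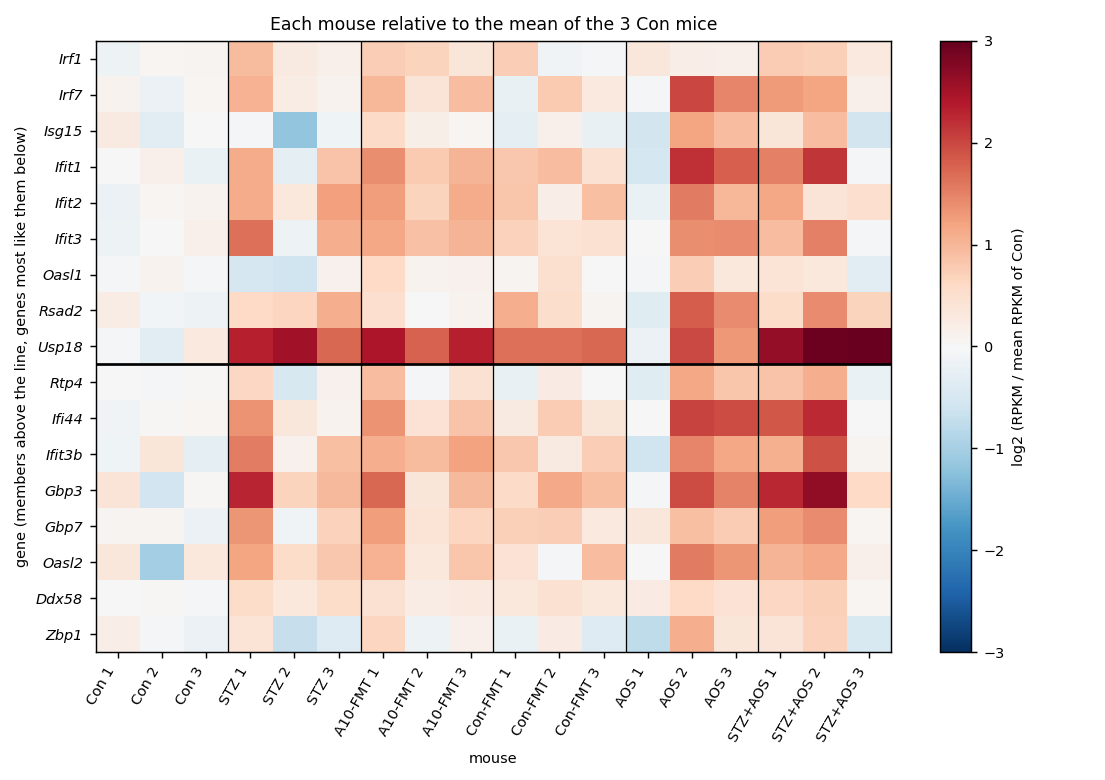
Log2 of the ratio of RPKM to the mean of the 3 Con mice (colour scale, red higher and blue lower) for the 9 genes and, below the line, the 8 genes most like them (rows) in each of the 18 mice (columns). AOS mice 2 and 3 are red for most rows and AOS mouse 1 is not, while Usp18 is red in all 12 mice given STZ.

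*Usp18* parted from the other members in particular mice. In STZ mouse 2, *Usp18* was 12.69 RPKM, the highest of its group, while *Isg15* (5.07 RPKM), *Ifit1* (0.91 RPKM) and *Ifit3* (2.53 RPKM) were the lowest. STZ+AOS mouse 3 had the same arrangement, at 17.27 RPKM of *Usp18*. In AOS mouse 2 the genes were high together: it had the highest *Irf7*, *Isg15* and *Ifit1* of all 18 livers and, at 8.72 RPKM, the highest *Usp18* of its group.

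*Usp18* lies on chromosome 6 (chr6:121245906-121270917, plus strand, GRCm38), and the annotation has a noncoding gene, *Gm44148*, over part of it on the opposite strand. Its nearest upstream protein-coding gene on the same strand is *Tuba8*, an alpha tubulin, 19052 bases away. Of the genes beside the members *Tuba8* was picked after its values were seen. *Tuba8* was 0.28 to 0.91 RPKM in Con, 12.54 to 41.79 RPKM in STZ, 5.73 to 11.26 RPKM in A10-FMT, 2.25 to 18.48 RPKM in Con-FMT and 20.63 to 50.49 RPKM in STZ+AOS livers. In AOS livers it was 0.33, 0.45 and 0.46 RPKM, at the Con level in the mice where *Usp18* was 8.72 and 5.48 RPKM. The *Tuba8* change was 3.85 in STZ against Con (SE 0.57, adjusted p = 0.00096, limma) and 4.49 in STZ+AOS against AOS (SE 0.53, adjusted p = 6.9e-05). Over 18 livers r with *Usp18* was 0.82 (rho 0.83), and 0.29 within groups. The downstream neighbour *Slc6a13*, 29310 bases away, was 67.79 to 88.79 RPKM in Con and 97.97 to 125.77 RPKM in STZ livers (log2 change 0.52, adjusted p = 0.0093). In STZ+AOS against AOS its change was 0.12 and did not pass (adjusted p = 0.434).

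**Figure D5:**
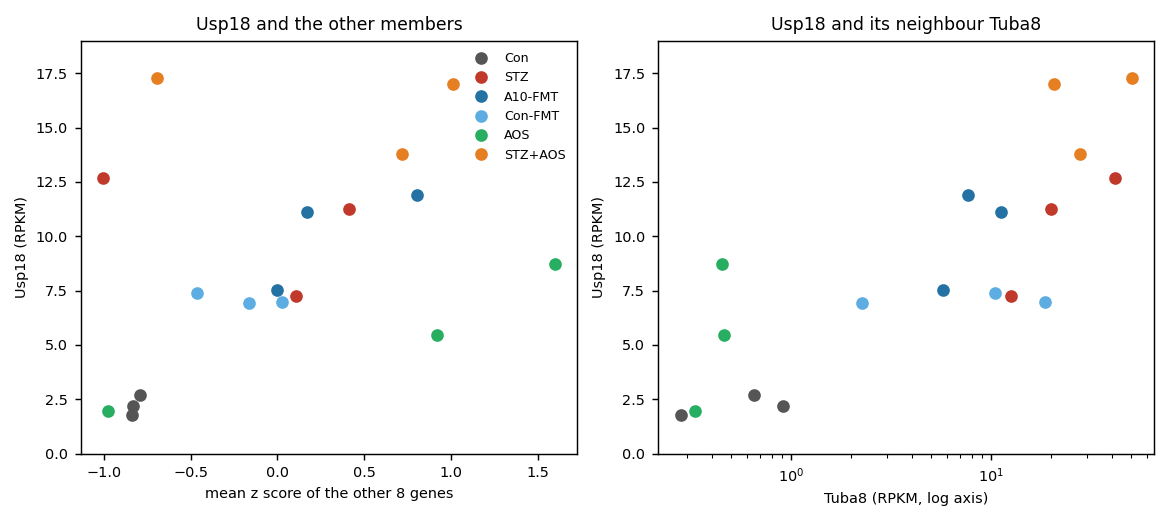
Usp18 (y axis, RPKM) in each of 18 mice against the mean z score of the other 8 genes (left, x axis) and against its neighbour Tuba8 (right, x axis, RPKM on a log axis), coloured by group. Mice given STZ lie at 6.94 RPKM of Usp18 or more at any score of the other genes, and AOS mice 2 and 3 are raised in Usp18 with Tuba8 under 0.5 RPKM.

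The rest of the interferon pathway was read from lists of 116 genes, of which 94 were in the table and 79 were tested in STZ against Con. Of the 21 ligands, 3 were in the table (*Ifng*, *Ifnk* and *Ifna12*). The highest value of a ligand in any of the 18 livers was 0.17 RPKM, for *Ifng*, and no ligand reached the level needed for a test. In STZ against Con, 19 pathway genes rose and 5 fell, 24 of 79 genes where 38.5% of all genes were called, with a median of 0.17. After median-ratio scaling 10 of 78 pathway genes were called, 0 higher and 10 lower, where 27.2% of all genes were called. The same scaling moved the calls over all genes from 3502 higher and 585 lower to 1480 higher and 1402 lower. Each pathway gene called higher in STZ against Con was therefore called on the deposited scale and not after median-ratio scaling.

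Among the receptor chains, 3 of 5 tested rose in STZ. *Ifnar2* went from 65.4 ± 2.3 to 90.2 ± 11.3 RPKM (SD, n = 3; log2 change 0.45, adjusted p = 0.0078), and *Ifnar1* from 6.19 ± 0.33 to 8.04 ± 0.34 RPKM (0.33, adjusted p = 0.0081). *Il10rb*, which is shared by the receptors of interferon lambda and interleukin 10, had a change of 0.57 (adjusted p = 0.047). After median-ratio scaling their changes were 0.18, 0.10 and 0.35 and none passed. Of the 6 JAK-STAT transducers, 3 rose and 1 fell. *Jak1* went from 15.4 ± 0.5 to 20.0 ± 0.4 RPKM (0.35, adjusted p = 0.0046) and *Irf9* changed by 0.35 (adjusted p = 0.033), whereas *Stat2*, the partner of *Irf9* in the same complex, fell from 16.9 ± 2.0 to 10.8 ± 3.1 RPKM (-0.64, adjusted p = 0.011). The *Stat2* call was kept after median-ratio scaling (-0.89), and *Jak1* and *Irf9* did not pass (0.09 and 0.10).

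Of 5 tested interferon regulatory factors outside the members, 1 fell: *Irf5*, a factor of myeloid inflammatory responses, went from 8.11 ± 1.67 to 2.59 ± 1.08 RPKM (-1.37, adjusted p = 0.0047). *Irf5* fell also in STZ+AOS against AOS (-1.32, adjusted p = 0.0022), as did *Stat2* (-0.54, adjusted p = 0.012), and both genes were called lower after median-ratio scaling in both comparisons. Of 9 nucleic acid sensors and adaptors 2 rose, *Ddx58* (the RNA sensor RIG-I; 0.41, adjusted p = 0.0048) and *Tlr3* (a receptor of double-stranded RNA; 0.29, adjusted p = 0.036).

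Of 6 tested inhibitors of interferon signalling, 3 rose in STZ and 5 in STZ+AOS against AOS. *Socs3*, which inhibits cytokine receptors and is also induced by interleukin 6, went from 2.47 ± 0.53 to 6.78 ± 3.26 RPKM (1.07, adjusted p = 0.022), and its change in STZ+AOS against AOS was 2.03 (adjusted p = 0.0013). The phosphatase *Ptpn11* (0.50, adjusted p = 0.0031) and *Pias1*, a SUMO ligase that inhibits the pathway (0.48, adjusted p = 0.013), also rose. *Usp18*, itself an inhibitor of this pathway, was placed among the members and is not in these counts. The calls were made where 38.5% (STZ against Con) and 37.9% (STZ+AOS against AOS) of all genes were called, and the median over the 6 inhibitors in STZ against Con was 0.43 beside 0.21 for all genes. After median-ratio scaling 0 inhibitors were called in STZ against Con, where *Socs3* had a change of 0.85 (adjusted p = 0.057), and 2 in STZ+AOS against AOS, *Socs3* (1.83, adjusted p = 0.0027) and *Ptpn11* (0.36, adjusted p = 0.035). With that scaling 27.2% of all genes were called in STZ against Con and 24.6% in STZ+AOS against AOS.

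Of 31 tested type I interferon-stimulated genes outside the members, 7 rose and 2 fell in STZ, with *Parp12* (0.45, adjusted p = 0.011) and *Lgals3bp* (0.39, adjusted p = 0.021) up and the exonuclease *Isg20* (-0.36, adjusted p = 0.022) down. Of 14 genes of the interferon gamma class, 1 rose and 1 fell: *Gbp3* went from 0.960 ± 0.301 to 2.71 ± 1.74 RPKM (0.83, adjusted p = 0.043), and *Ifi47* from 21.9 ± 4.1 to 11.5 ± 4.7 RPKM (-0.94, adjusted p = 0.020). No ISG15 conjugation enzyme was called, and *Ube2l6*, the conjugating enzyme with the highest level, was 21.5 ± 3.0 RPKM in Con and 19.7 ± 3.5 RPKM in STZ livers (-0.12, adjusted p = 0.462).

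The pathway lists gave no call by limma when either transplant group was set against STZ or when the transplants were set against each other. At an unadjusted p under 0.05 there were 15 of 79 genes for A10-FMT against STZ (20.9% of all genes). There were 12 for Con-FMT against STZ (20.1% of all genes) and 3 between the transplants (2.86% of all genes). AOS against Con and STZ+AOS against STZ also gave no call. They had 9 and 5 genes at an unadjusted p under 0.05, against 7.22% and 6.07% of all genes. Relative to Con, 8 of 79 genes were called in A10-FMT (18.4% of all genes) and 6 in Con-FMT livers (19.4% of all genes), all higher. After median-ratio scaling the counts were 0 and 0, where 11% and 8.23% of all genes were called. STZ+AOS against AOS had 20 of 81 genes called, 12 higher and 8 lower, against 37.9% of all genes. After median-ratio scaling 3 were higher and 11 lower, where 24.6% of all genes were called. *Isg20*, which fell with STZ, had changes of 0.41 in A10-FMT (adjusted p = 0.083) and 0.67 in Con-FMT livers (adjusted p = 0.057) against STZ, both outside the threshold.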

How the data were processed

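Liver RNA of 18 mice was sequenced from libraries made with oligo(dT) selection on an Illumina HiSeq instrument. The deposited table holds 1 RPKM value per gene symbol and library, scaled by the authors to transcript length and mapped reads. The methods of the study name SOAPaligner, the submitters' processing notes name Bowtie 0.12.2 and mm10, and which of them made the table is not settled. The annotation and counting tool are not given in the sources used here. No raw counts were used, so the authors' DEGseq test was not run. Sums of RPKM differed between groups (749557 to 806937 in Con, 631126 to 684659 in STZ). Reads per library are unknown. Steps between the low values of 32 genes gave relative depths of 0.931 to 1.087.

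A fit kept genes that reached 1 RPKM in 3 or more of its libraries. Group means of log2(RPKM + 1) were estimated in limma 3.58.1 (R 4.3.3), with variances moderated along the mean trend. Con, STZ, A10-FMT and Con-FMT (12 libraries, 10602 genes) entered 1 model for 6 comparisons. All 6 groups (18 libraries, 10822 genes) entered another for the 4 comparisons with AOS groups. Benjamini-Hochberg adjusted p-values under 0.05, over all genes of a comparison, were called. P-values and intervals rest on the spread between mice within groups, pooled over all groups of a model and moderated over genes. The 9 genes and the pathway and marker lists were chosen with earlier results of these data known. Beside the 9 members the text names, for each pathway list, the called genes of lowest adjusted p, up to 3, in STZ against Con or in a comparison with STZ or AOS. A list with no call is represented by its gene of highest mean, and the 8 genes most like the members were taken by r.

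Alternatives were median-ratio scaling, quantile normalization, no trend, no filter, only the compared groups, a pseudocount of 0.1, a filter of 1 RPKM in every library, all 6 groups, a replicate block, stricter limits (adjusted p up to 0.001 and an absolute log2 change of 1 or more) and leaving out each mouse. Procedures were tested on simulated data. Promoter sequences come from RefSeq (GRCm38.p6) and gene positions from the GRCm38 annotation. Tables and figures used Python 3.11.15, pandas 2.3.3 and matplotlib 3.10.9. *Mx1*, *Mx2*, *Oas1b* and *Cxcl11* were not analysed here.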

Additional observations from a re-analysis of the deposited data

How the results depend on the processing

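*Usp18* kept its direction and its call in STZ against Con and A10-FMT against Con under every alternative run, and in Con-FMT against Con and STZ+AOS against AOS under all but the stricter limits, which left 0 members called in each of these 2 comparisons. In STZ against Con the 2 called members became 1 with median-ratio scaling, quantile normalization, no filter, 1 RPKM in every library, all 6 groups and the stricter limits, and 1 to 4 with a mouse left out. The 4 came without STZ mouse 2, and the count was 1 without each Con mouse, STZ mouse 1 or each A10-FMT mouse in turn. With a pseudocount of 0.1, no trend or the replicate block there were 3 in each of STZ against Con and A10-FMT against Con, *Ifit2* being among them each time. In A10-FMT against Con the 2 members became 1 under the same settings and 5 with only the compared groups, and 1 to 4 with a mouse left out (1 without each Con or A10-FMT mouse, 4 without STZ mouse 1 or 2). Con-FMT against Con had 3 with only the compared groups, and 1 to 2 with a mouse left out, the 2 without STZ mouse 2. A10-FMT against STZ had 0 to 1 members and Con-FMT against STZ 0 to 2, with calls when STZ mouse 3 was left out. These counts of members stand without the share of all genes called in the same fits, so they cannot be read as particular to the members.

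The other pathway genes called in STZ against Con, 24, became 10 with median-ratio scaling, 9 with quantile normalization, 15 with no filter, 11 with only the compared groups and 0 with the stricter limits, and 10 to 27 with a mouse left out (10, 12, 13 and 14 without Con mouse 1, 2 or 3 or STZ mouse 1). The 8 in A10-FMT against Con became 0, 1, 2, 14 and 0 under those settings and 1 with all 6 groups (0 to 11 with a mouse left out, at most 4 without any Con mouse, A10-FMT mouse 1 or 3 or Con-FMT mouse 3). The 6 in Con-FMT against Con became 0 with both scalings, 11 with only the compared groups and 0 with the stricter limits (0 to 9 with a mouse left out, at most 3 without any Con or Con-FMT mouse). The 20 in STZ+AOS against AOS became 13 with only the compared groups and 0 with the stricter limits (11 to 21 with a mouse left out, 12 and 11 without AOS mouse 2 or 3). Con-FMT against STZ had 1 with either scaling, with 1 RPKM in every library and with all 6 groups (0 to 8 with a mouse left out), and A10-FMT against STZ 0 to 12 (2 without STZ mouse 1), the highest of both without STZ mouse 3. The share of all genes called also fell with median-ratio scaling. It went from 38.5% to 27.2% in STZ against Con and from 18.4% to 11% in A10-FMT against Con. In Con-FMT against Con it went from 19.4% to 8.23%, and in STZ+AOS against AOS from 37.9% to 24.6%. For the other settings and left-out mice this share is not given here, so the counts cannot be read as particular to interferon genes. The cause was not tested. No called value changed sign. Of 2114 member values under alternatives, 54 changed sign, all for changes called in neither fit.

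Whether the mouse numbers pair the samples cannot be settled from these values, with 3 mice in a group. Over 45 pairs of same-numbered mice the correlation of deviations from group means ran from -0.249 to 0.472, and 16 were over 0.1. A10-FMT and Con-FMT were the groups in which all 3 pairs were over 0.1 (0.121, 0.291 and 0.179), and with the block 0 members and 0 other pathway genes were called between them, as without it. With the replicate number as a block, 3 members were called in STZ against Con (*Usp18*, *Ifit2* and *Ifit3*), 3 in A10-FMT against Con, 1 in Con-FMT against Con and 1 in STZ+AOS against AOS, and 21, 6, 4 and 20 other pathway genes. In the other 6 comparisons the count was 0. The share of all genes called with the block is not given here. Unknown depth limits the genes near 1 RPKM, *Ifit1*, *Ifit2* and *Rsad2*.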
